A study of Mus musculus with 6 samples.

Results

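The genes described here encode factors that form the 3' end of histone mRNA, an activator of histone genes (Npat) and the cap-binding complex with which the negative elongation factor (NELF) associates. They are Slbp, Lsm10, Lsm11, Cpsf2, Cpsf3, Sympk, Cstf2, Npat, Ncbp1 and Ncbp2, chosen by name for their function, and every probe annotated to them was taken. Of the 10 genes, 8 had a probe on the Illumina bead array, out of 16593 genes with a probe in all. No probe is annotated to Sympk or Npat in the platform annotation used, so these genes were not analysed here. The 8 genes had 10 probes, and 5 of the probes, for 4 genes, were detected on at least 3 of the 6 arrays and were tested.

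Heart RNA of female C57BL/6J mice was measured in 6 samples, 1 array each, and the study's design names 3 mice per group. The 3 control samples were from Nelf-b f/f mice, carrying floxed alleles of the gene for NELF subunit B, and the 3 knockout samples from Nelf-b f/f; CreER mice, carrying in addition a Cre recombinase that tamoxifen activates. Mice of both groups received tamoxifen at 8 weeks of age, were fed regular chow, fasted for 5 hours and were killed at 20 weeks. The controls had no CreER, so recombinase and gene deletion cannot be told apart, and the labels do not name the promoter that drives CreER.

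The direction of every difference depends on which group names are used. In the non-normalized table, 6 of 6 column headers carry the group name opposite to that of the sample record whose value-table column has the same rank order over probes, and groups here follow the sample records. With the headers instead, every sign below turns. Under the records, the Nelfb probe ILMN_2873174 read 6.96, 7.04 and 7.03 (log2) in controls against 5.38, 5.43 and 5.44 in knockouts, well apart. The difference was -1.59 ± 0.13 SE, and limma gave an adjusted p of 0.000199. The second Nelfb probe (ILMN_2655803) was lower by a log2 difference of -0.92 ± 0.14 SE (limma adjusted p = 0.00366). The mean signal per array before normalization ran from 169.8 to 310.3, and 38.8% to 43.8% of probes were detected. Control array 1 stood apart on the second principal component, at 22.0 against -9.70 to 1.76 for the other 5 arrays.

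Most messenger RNAs are cleaved and polyadenylated, whereas the mRNAs of replication-dependent histones end in a stem-loop and carry no poly(A) tail. The stem-loop binding protein and the U7 small nuclear ribonucleoprotein (U7 snRNP) recruit a cleavage complex that shares its nuclease with the polyadenylation machinery. In human cells NELF has been found to bind the nuclear cap-binding complex and to take part in this 3' end formation. Most adult cardiomyocytes do not divide, and this pathway is known mainly from cycling cells. All signals below are log2 values after background correction and quantile normalization, a group mean carries its SD (3 arrays), and a difference carries the moderated SE of limma. A probe was called when its limma adjusted p was below 0.05.

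None of the 5 tested probes of these factors was called (limma, smallest adjusted p = 0.139), where 3.92% of all 10407 tested probes were called. At an unadjusted p below 0.05 there were 2 of 5, for Ncbp1 and Lsm10, against 19.7% of all probes tested. The difference, knockout minus control, was above 0 for 1 of the 5 probes and below 0 for 4, with a median of -0.15. The median over all probes tested was 0.00 and the median size of a difference was 0.18. Groups did not overlap for 1 of the 5 probes, that of Ncbp1, which was higher in knockouts, against 24.3% of all probes (13% with knockouts higher and 11.3% with knockouts lower). In whole-heart RNA, fewer cells of a type and less RNA per cell cannot be told apart.

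**Figure D1:**
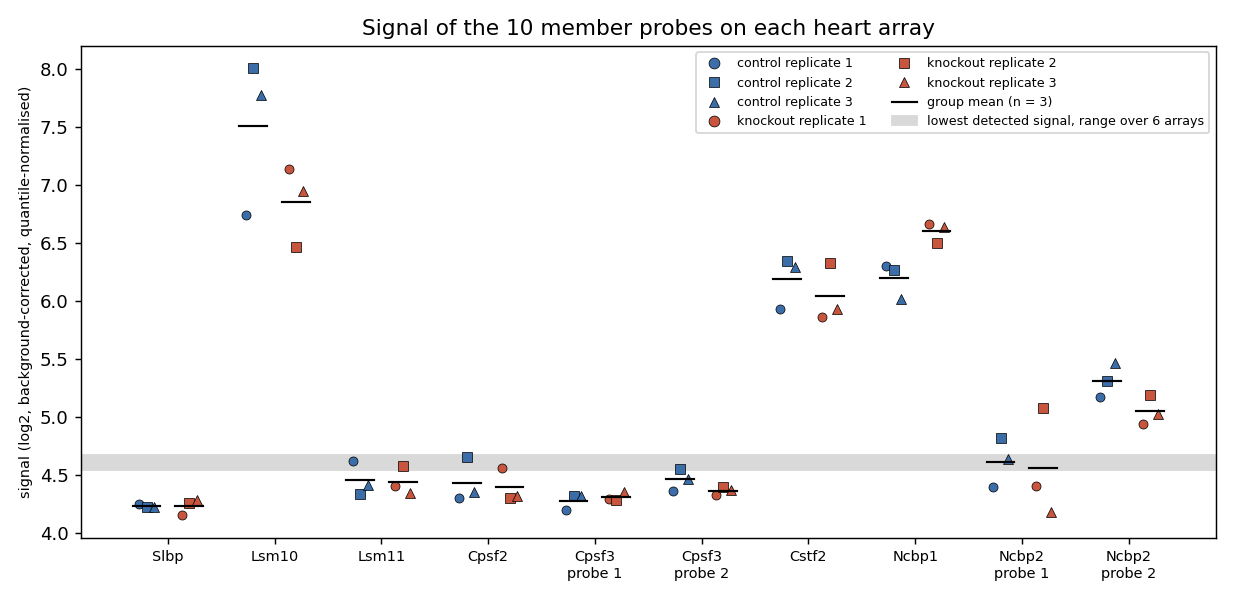
Signal (log2, vertical axis) of each of the 10 member probes on the 3 control and 3 knockout arrays, with group means as bars and the range of the lowest detected signal over arrays, 4.54 to 4.67, in grey. The Slbp probe and the first Cpsf3 probe lay below the band on every array, Ncbp1 was the probe whose groups did not overlap among those tested, and Lsm10 was spread widest, with control array 1 among the knockout values.

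NELF acts near transcription start sites, and the promoters of the factors on which the results below turn are shown for that reason. They belong to Ncbp1 and Lsm10, the 2 members with the largest differences in opposite directions, to Slbp, whose signal was not detected, and to Cstf3, a partner factor that was called. The sequences are from RefSeq (GRCm38.p6), from 250 bases before the annotated start to 50 after it, 5' to 3' on the strand of the gene. Capitals mark matches, on either strand, to 5 motifs, which are TATAAA of the TATA box, CCAAT of the CCAAT box, GGGCGG of the GC box, CCGGAAG of ETS sites and TTTCCCGC of E2F sites. None of the 15 matches in these 4 sequences overlapped another.
Ncbp1 promoter, chr4:46138261-46138560, plus strand: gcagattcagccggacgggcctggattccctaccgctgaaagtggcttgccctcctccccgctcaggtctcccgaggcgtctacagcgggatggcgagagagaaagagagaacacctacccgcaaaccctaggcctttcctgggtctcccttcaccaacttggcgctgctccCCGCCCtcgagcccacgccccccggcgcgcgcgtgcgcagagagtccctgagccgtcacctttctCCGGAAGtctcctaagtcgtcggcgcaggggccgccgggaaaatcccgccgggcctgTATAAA
Lsm10 promoter, chr4:126096403-126096702, plus strand: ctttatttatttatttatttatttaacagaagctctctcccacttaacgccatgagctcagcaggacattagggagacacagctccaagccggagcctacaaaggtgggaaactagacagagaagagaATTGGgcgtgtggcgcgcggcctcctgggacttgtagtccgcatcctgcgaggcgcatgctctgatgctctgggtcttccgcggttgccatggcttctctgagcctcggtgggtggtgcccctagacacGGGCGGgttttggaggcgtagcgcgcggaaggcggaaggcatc
Slbp promoter, chr5:33652525-33652824, minus strand: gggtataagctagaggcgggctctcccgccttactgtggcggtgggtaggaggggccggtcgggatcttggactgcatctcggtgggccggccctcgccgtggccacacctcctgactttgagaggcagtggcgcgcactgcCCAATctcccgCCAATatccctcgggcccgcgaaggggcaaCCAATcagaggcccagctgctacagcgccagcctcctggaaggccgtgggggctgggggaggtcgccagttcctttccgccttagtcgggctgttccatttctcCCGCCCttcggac
Cstf3 promoter, chr2:104590234-104590533, plus strand: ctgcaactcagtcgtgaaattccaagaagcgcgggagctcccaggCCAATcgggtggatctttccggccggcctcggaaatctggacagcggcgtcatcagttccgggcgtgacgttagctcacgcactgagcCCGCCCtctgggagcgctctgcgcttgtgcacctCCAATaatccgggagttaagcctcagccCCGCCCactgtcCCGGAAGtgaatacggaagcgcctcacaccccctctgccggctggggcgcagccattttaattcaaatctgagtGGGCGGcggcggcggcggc

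Of the 10 genes, 9 had a promoter sequence in the RefSeq table. Their GC content ran from 56.3% to 69.7% with a median of 66.3%, against a median of 52.7% over all 32851 promoters of the same length. GGGCGG, the core of the GC box, was found in 7 of the 9 and in 35.7% of all promoters. CCAAT was found in those of Slbp, Lsm10 and Npat, 3 of 9, and in 37.4% of all promoters. The Slbp sequence held 3 copies, beginning 108, 97 and 67 bases upstream of the start. CCGGAAG, which ETS factors can bind, was found in those of Ncbp1 and Cpsf3 (8.9% of all promoters), and in Ncbp1 it began 13 bases upstream of the start. TATAAA occurred in 1 of 9, Ncbp1, where it lies 44 bases downstream of the start and so not at the usual place of a TATA box (13.6% of all promoters). TTTCCCGC, a form of the E2F site, was in 0 of 9 and in 1.1% of all promoters. These matches describe letters in a window and say nothing of what binds there.

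Slbp encodes the protein that binds the histone stem-loop, and its probe (ILMN_2736826) was detected on 0 of 6 arrays. Its signal was 4.25, 4.22 and 4.22 in controls against 4.15, 4.26 and 4.28 in knockouts. All 6 values lay below the lowest signal of a detected probe, which was between 4.54 and 4.67 depending on the array, and the detection p was 0.565 at the lowest. A difference between the groups was not detectable at this signal. Over the whole array, 46.0% of probes were detected on no array, so a probe without signal was common.

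Lsm10 and Lsm11 encode the Sm-like proteins that set the ring of the U7 snRNP apart from that of the spliceosomal snRNPs. The Lsm10 probe (ILMN_2725429) was detected on all 6 arrays. Its signal was 6.74, 8.01 and 7.78 in controls against 7.13, 6.46 and 6.95 in knockouts. Control arrays 2 and 3 were above every knockout array, while control array 1 was below 2 of the 3 knockouts, so the groups overlapped. The mean was 7.51 ± 0.67 in controls and 6.85 ± 0.35 in knockouts (SD, n = 3 each). The difference was -0.66 ± 0.28 SE, with a 95% interval from -1.27 to -0.05, and the limma adjusted p was 0.221. In the authors' deposited value table, on a linear scale, the probe read 245.0, 456.5 and 405.7 in controls against 294.4, 215.0 and 270.1 in knockouts, with the same order of arrays.

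The Lsm10 result turned on control array 1. Without it the difference was -1.04 ± 0.20 SE and the probe was called lower (limma adjusted p = 0.0212). Under the other 14 alternatives Lsm10 was not called, and over all 15 the adjusted p ran from 0.0212 to 0.723. Without control array 2 the difference was -0.41 ± 0.27 SE (adjusted p = 0.516). A sample and its array cannot be told apart here.

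**Figure D2:**
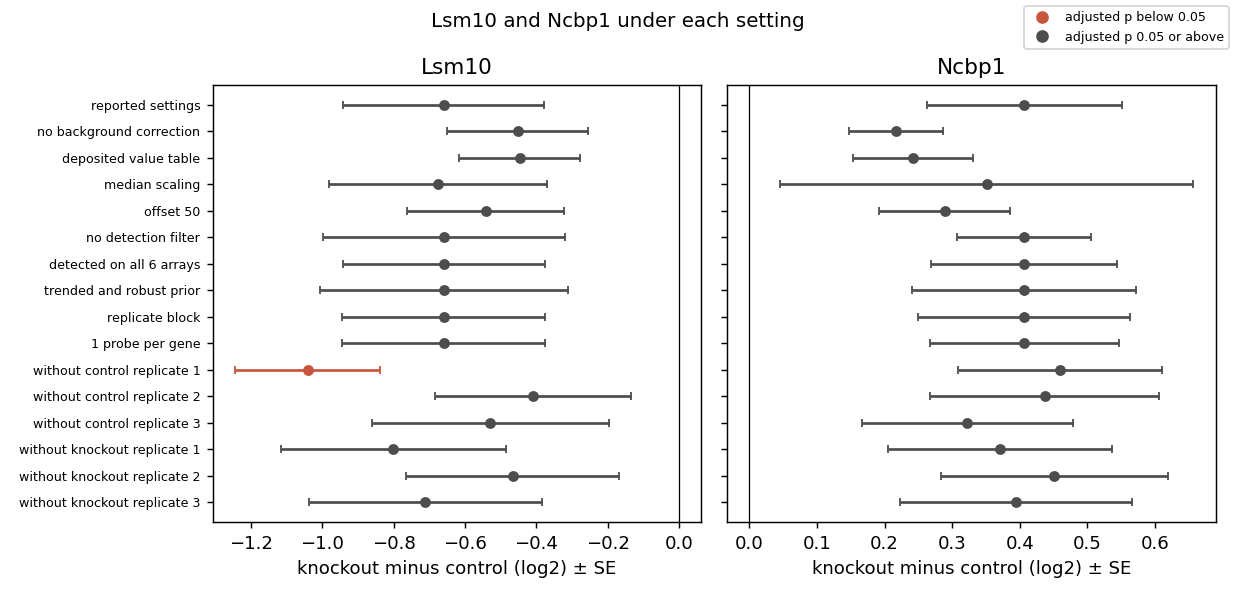
Difference, knockout minus control (log2, horizontal axis, ± SE), for Lsm10 and Ncbp1 under the reported settings and 15 alternatives, red where the limma adjusted p was below 0.05. Lsm10 was called in 1 setting, without control array 1 (-1.04), and Ncbp1 in none, with differences from 0.22 to 0.46.

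The Lsm11 probe was detected on 0 of 6 arrays, with signals from 4.33 to 4.62 and a lowest detection p of 0.0526. The other proteins of the U7 ring are shared with spliceosomal snRNPs. Snrpd3, which encodes SmD3, had signals of 7.20, 8.27 and 8.11 in controls against 7.34, 7.16 and 7.74 in knockouts. As for Lsm10, control arrays 2 and 3 were the highest and control array 1 lay among the knockouts. The difference was -0.45 ± 0.25 SE (limma adjusted p = 0.349), and without control array 1 it was -0.77 ± 0.19 SE with an adjusted p of 0.0453, while without control array 2 it was -0.24 ± 0.25 SE (0.695). Over the 15 alternatives the adjusted p of Snrpd3 ran from 0.0453 to 0.9997. Snrpd3 and the other ring genes named here were singled out after their values were seen. The Snrpg probe (SmG) gave -0.27 ± 0.15 SE and the 2 Snrpb probes (SmB) gave 0.20 ± 0.14 SE and -0.11 ± 0.14 SE, none of them called. The Snrpe probe was detected on no array and Snrpf has no annotated probe here.

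Cpsf2 and Cpsf3 encode the paired subunits of the cleavage complex, of which the Cpsf3 product is the nuclease. The Cpsf2 probe was detected on control array 2 alone (4.65), and the other 5 arrays ran from 4.296 to 4.56. The first Cpsf3 probe was detected on no array (4.20 to 4.35). The second was detected on control array 2 alone, at 4.55 against 4.32 to 4.47 on the others. With these signals no comparison between the groups was made for either gene.

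Cstf2 encodes a subunit of the cleavage stimulation factor that acts on both histone and polyadenylated precursors. Its probe (ILMN_2698589) was detected on all arrays, at 5.93, 6.35 and 6.29 in controls against 5.86, 6.32 and 5.93 in knockouts. The groups overlapped almost fully, with a low value in controls against a high one in knockouts. The difference was -0.15 ± 0.17 SE (limma adjusted p = 0.679), with a 95% interval from -0.53 to 0.22. Leaving out 1 array moved it between -0.29 (without knockout array 2) and -0.06 (without knockout array 1), and it was called in none of these. The probe of Cstf2t, a closely related gene, was detected on no array, and whether the Cstf2 probe also binds its transcript was not tested.

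Ncbp1 encodes the large subunit of the nuclear cap-binding complex, and its signal was higher on each knockout array than on any control array. The probe (ILMN_3162184) read 6.30, 6.27 and 6.01 in controls against 6.67, 6.50 and 6.64 in knockouts. The groups did not overlap. The mean was 6.19 ± 0.16 in controls and 6.60 ± 0.09 in knockouts (SD, n = 3 each), a difference of 0.41 ± 0.14 SE or 1.33-fold. Its 95% interval ran from 0.09 to 0.72, and the limma adjusted p of 0.139 did not pass the threshold. In the authors' deposited value table the probe read 200.4, 197.2 and 176.6 in controls against 235.8, 218.7 and 232.3 in knockouts. The difference stayed above 0 under all 15 alternatives, from 0.22 to 0.46, and was called under none (adjusted p from 0.102 to 0.9997).

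Ncbp2 encodes the small subunit, which holds the cap itself, and has 2 probes. One probe (ILMN_2788263) read 5.17, 5.31 and 5.46 in controls against 4.93, 5.19 and 5.02 in knockouts. Knockout array 2 lay just above control array 1, so the groups overlapped. The difference was -0.26 ± 0.15 SE (limma adjusted p = 0.344), with a 95% interval from -0.58 to 0.05. The other (ILMN_2788260) was detected on 3 arrays and ranged from 4.18 to 5.08, with the highest and the lowest value both among the knockouts. Its difference was -0.06 ± 0.21 SE (adjusted p = 0.907).

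The subunits of the cap-binding complex thus had differences of opposite sign, above 0 for Ncbp1 and below 0 for the Ncbp2 probe detected on all arrays. The Ncbp1 difference exceeded that of Ncbp2 by 0.67 (log2). This contrast was chosen after the values were seen and is given as a description. Among tested genes outside the member list, Tnfsf13b, Tecrl and Cibar1 had the array patterns nearest to that of Ncbp1, with root mean square differences of 0.04, 0.05 and 0.05 (log2) over the 6 arrays after centring. None of these genes was called (limma adjusted p = 0.203, 0.127 and 0.12). The Tecrl probe was detected on the knockout arrays alone and so entered the test only through the group where it was higher. Its control values were at background, and with any knockout array left out it was no longer tested. A second Cibar1 probe differed by -0.02 ± 0.15 SE. The Cibar1 probe with the near pattern was called with no background correction (adjusted p = 0.0484), and over its 15 alternatives the adjusted p ran from 0.0484 to 0.9997.

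Beyond the 10 genes, a list of 35 other factors of histone and polyadenylated 3' end formation and of cap-bound RNA was followed. Of these, 33 had a probe, and 33 probes for 23 genes were tested. One probe was called higher and 1 lower (background 1.99% and 1.93% of all probes tested). The median difference was 0.05, 18 probes were above 0 and 15 below, and groups did not overlap for 8, where 24.3% of all probes did not. The list was chosen with earlier results of these data known.

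**Figure D3:**
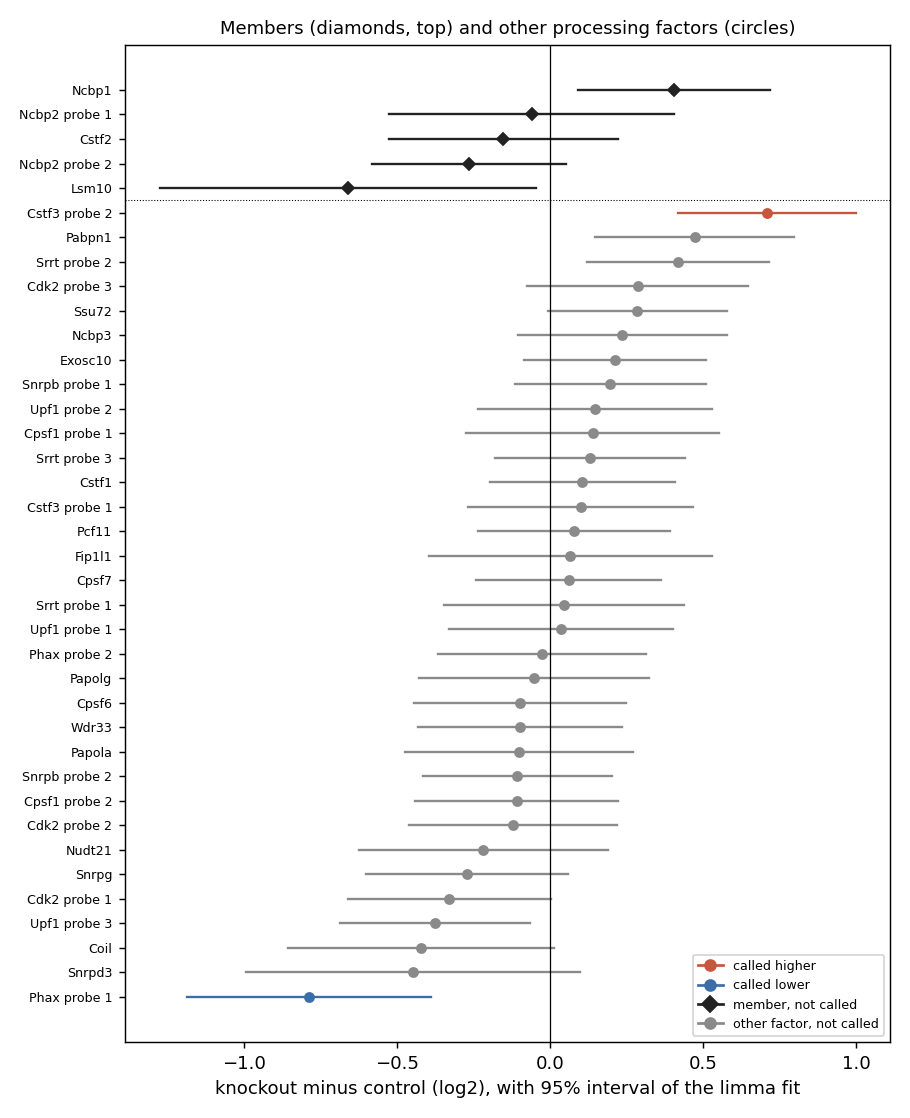
Difference, knockout minus control (log2, horizontal axis), with the 95% interval of the limma fit, for the 5 tested member probes (diamonds) and the 33 tested probes of other processing factors (circles). A Cstf3 probe (0.71) was called higher and a Phax probe (-0.79) lower, and none of the diamonds was called.

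Cstf3, which encodes the subunit that holds the cleavage stimulation factor together and so partners Cstf2, was called higher at 1 of its 2 tested probes. That probe (ILMN_3145415) read 6.27, 6.17 and 6.16 in controls against 6.94, 6.86 and 6.92 in knockouts. Both groups were tight and lay well apart. The difference was 0.71 ± 0.13 SE or 1.63-fold (limma adjusted p = 0.0134). The other probe (ILMN_2615837) read 5.79, 5.35 and 5.86 in controls against 5.58, 5.84 and 5.90 in knockouts, which overlapped, with a difference of 0.10 ± 0.17 SE (adjusted p = 0.791). The probes of this gene thus disagreed, and the positions of the probes on its transcripts were not analysed here. The call was lost with median scaling (adjusted p = 0.743) and without control array 3 (0.0660), with differences of 0.67 and 0.71. Under median scaling each probe followed across settings had the same SE, 0.31, where this probe had 0.13 under the reported settings. The adjusted p was within a range from 0.00533 to 0.743 over 15 alternatives.

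Phax encodes the adaptor that links the cap-binding complex to the export of small nuclear RNA precursors. One probe (ILMN_2749972) read 5.43, 5.86 and 6.02 in controls against 5.17, 5.07 and 4.72 in knockouts, without overlap. It was called lower, with a difference of -0.79 ± 0.18 SE or 1.73-fold (limma adjusted p = 0.0348). The knockout values lay near the lowest detected signal, 4.54 to 4.67, with a detection p of 0.0401 on knockout array 3. The other probe (ILMN_2804636) read 7.001, 6.55 and 6.61 in controls against 6.66, 6.77 and 6.65 in knockouts, a difference of -0.03 ± 0.16 SE (adjusted p = 0.946). The call of the first probe was lost under 8 of 14 alternatives, with adjusted p from 0.0157 to 0.393. Among these were no background correction, with which the difference was -0.29, median scaling, and leaving out control array 2 or 3 or knockout array 2 or 3 (adjusted p = 0.107, 0.154, 0.0865 and 0.118).

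**Figure D4:**
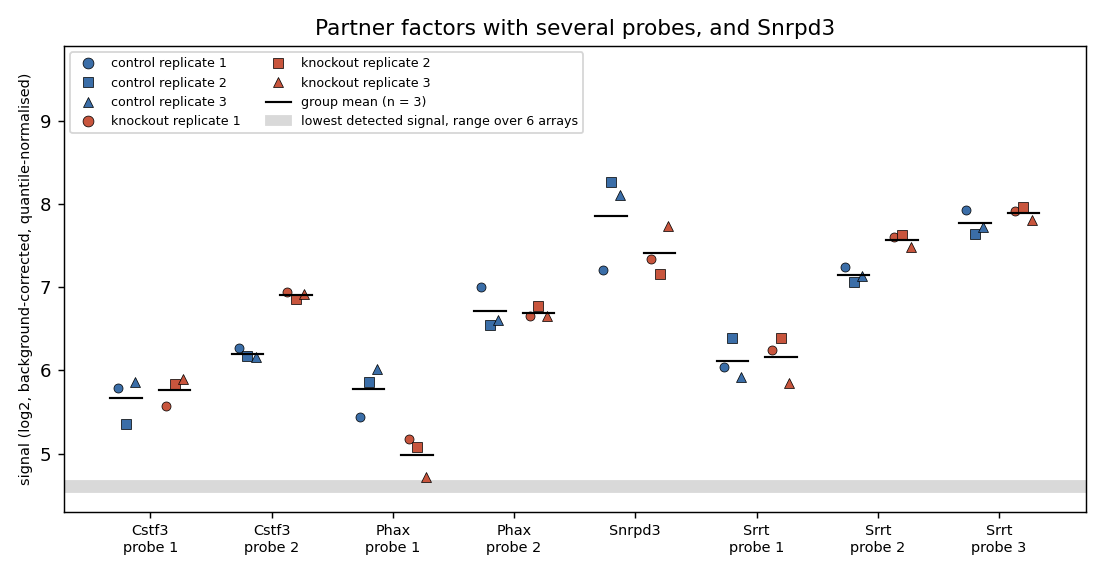
Signal (log2, vertical axis) of each tested probe of Cstf3, Phax, Snrpd3 and Srrt on the 3 control and 3 knockout arrays, with group means as bars and the lowest detected signal in grey. The second Cstf3 probe and the first Phax probe separate the groups and the other probe of each gene does not, and control array 1 lies among the knockouts for Snrpd3.

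The other factors with the smallest p were not called. Pabpn1, the nuclear poly(A) binding protein gene, had 9.24, 8.85 and 9.07 in controls against 9.62, 9.51 and 9.44 in knockouts. The groups did not overlap, and the difference was 0.47 ± 0.15 SE (limma adjusted p = 0.103). It was called under 4 of 15 alternatives, with adjusted p from 0.0226 to 0.9997. Srrt encodes a partner of the cap-binding complex, also known as ARS2, and had 3 tested probes with differences of 0.42 ± 0.14 SE, 0.13 ± 0.14 SE and 0.05 ± 0.18 SE. The first of these did not overlap between groups (adjusted p = 0.113) and was called under 2 of 14 alternatives (0.0345 to 0.9997). Upf1, an RNA helicase of histone mRNA decay, had -0.37 ± 0.14 SE at 1 probe (adjusted p = 0.171), 0.15 ± 0.18 SE and 0.04 ± 0.17 SE at the other 2. Cdk2, the kinase that phosphorylates the Npat protein, had -0.33 ± 0.15 SE at 1 probe (adjusted p = 0.26), and -0.12 ± 0.16 SE and 0.29 ± 0.17 SE at the other tested probes. For Srrt all 3 differences were above 0, while those of Upf1 and Cdk2 went both ways.

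Of the 52 probes of the list of 35 other factors, 13 (25%) were detected on no array, against 46% of all probes. They included factors tied to S phase but also Cstf2t and Snrpe, while Cdk2 had probes detected on all 6 arrays. Probes of Casp8ap2 and Eri1, whose products act with the U7 snRNP and on the end of histone mRNA, and of the cyclin E genes Ccne1 and Ccne2 were detected on no array. Coil, which encodes the scaffold of Cajal bodies, gave 5.09, 5.02 and 4.91 in controls against 5.10, 4.36 and 4.295 in knockouts. Knockout array 1 lay just above the controls and the other knockouts well below them, and the difference was -0.42 ± 0.20 SE (limma adjusted p = 0.269). Coil was singled out after its values were seen. Without knockout array 1, where neither remaining knockout array detected the probe, the difference was -0.67 with a limma adjusted p of 0.0460. It was -0.31 without knockout array 2, -0.29 without knockout array 3 and -0.14 with no background correction, with adjusted p within a range from 0.0460 to 0.9997 over 14 alternatives. Of 15 markers of proliferating cells, 12 had a probe and 5 a tested one. None of their 7 tested probes was called, and 6 of the genes, Top2a and Cdk1 among them, were detected on no array. The summed level ran from 7.82 to 8.02 in controls and from 7.69 to 7.86 in knockouts. Part of this sum was near background, as for Cdc20 (mean 4.55 in controls and 4.52 in knockouts) and a Birc5 probe (4.69 and 4.44). The Mcm5 probe lay higher (5.66 and 5.41).

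The core histone genes of the replication-dependent clusters, whose mRNA this machinery processes, had 31 tested probes in the same fit. Of these, 20 were called higher and 1 lower, where 1.99% and 1.93% of all tested probes were. None of the 5 tested probes of the 10 factors was called in that comparison, which is near the share of 3.92% called over all tested probes. The difference between these counts was not tested. Whether the histone signals came from stem-loop or from polyadenylated transcripts was not tested either.

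The subunits of NELF other than Nelfb were followed too. Nelfa differed by -0.05 ± 0.17 SE and Nelfcd by -0.17 ± 0.14 SE. The 2 probes of Nelfe, whose product contacts the cap-binding complex in human cells, differed by 0.13 ± 0.17 SE and 0.01 ± 0.14 SE. None of them was called (limma adjusted p from 0.550 to 0.978). Among marker lists of heart cell types, the 7 cardiomyocyte probes, 7 endothelial, 6 fibroblast and 4 macrophage probes held no call (3.92% of all tested probes were called). Of the 6 tested smooth muscle probes, 4 were called lower in knockouts, where 1.93% of all tested probes were. All 4 were of Acta2, while Myh11 differed by 0.01 ± 0.18 SE and Tagln by -0.09 ± 0.16 SE (limma adjusted p = 0.981 and 0.800). The largest difference among the cardiomyocyte probes was that of Tnni3, at -1.06 ± 0.31 SE (limma adjusted p = 0.0868). Its signal was 9.22, 10.38 and 10.86 on the control arrays and 9.26, 8.86 and 9.18 on the knockout arrays, so that control array 1 lay among the knockouts, as for Lsm10 and Snrpd3. The summed cardiomyocyte level ran from 16.03 to 16.14 in controls and from 15.92 to 16.13 in knockouts. That of the smooth muscle list, Acta2 included, ran from 11.62 to 11.97 in controls and from 10.66 to 11.19 in knockouts, and that of blood genes from 10.56 to 13.27 and from 12.49 to 13.98. Cardiac Myh6 was detected on all arrays, Postn and Ptprc on none, and Tnnt2, Cd68 and Csf1r have no annotated probe here. The part of these levels in the results above was not tested.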

How the data were processed

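Per the labels' protocols, heart RNA was purified on columns, then amplified and labelled with biotin. The authors deposited intensity values that were not normalized, with a detection p-value for each probe and array, per the file headers, and a value table of intensity values normalized in a way the sources used here do not give. The submitters' processing notes name GenomeStudio. The platform annotation gave 1 symbol for 23977 of 25696 probes and several for 0, and 1719 stay unnamed.

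Background correction and quantile normalization of the non-normalized values used neqc (limma 3.58.1, R 4.3.3), with an offset of 16 and negative controls inferred from the detection p-values. The 10407 probes detected (detection p under 0.05) on 3 or more arrays entered a 2-sided limma test (lmFit, then eBayes), with Benjamini-Hochberg adjustment over all of them. Of these, 408 were called, 207 higher and 201 lower. The fit was run on simulated data with independent normal noise of the fitted variances. Such data cannot show how it handles a shift of a whole array. Arrays of the non-normalized table were tied to sample records by rank order over probes, after the tables were seen. Promoters were searched with Python 3.11.15, and figures drawn with matplotlib 3.10.9. The 10 members, the lists and the tests were chosen with earlier results of these data known. All members were named, with the called probes and the 6 genes of smallest p of the pathway list, and the 3 patterns nearest to the member of smallest p. The labels name no batch. The design text names 3 mice per group. The p-values under the reported settings rest on the spread between 3 arrays per group, which limma moderated towards that of all probes tested. The number of arrays limits the precision.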

Additional observations from a re-analysis of the deposited data

How the results depend on the processing

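The absence of calls among the member probes held in 14 of 15 alternatives. Leaving out 1 array gave 0 to 1 calls, the 1 being Lsm10 without control array 1. In that setting 521 of all 10069 tested probes were called. The median difference of the tested members, -0.15, stayed below 0, from -0.31 to -0.05, and Nelfb stayed called, from -1.63 to -0.80 (the latter with no background correction). The count of 408 called probes became 694 with no background correction, 762 in the deposited value table, 699 with an offset of 50, 775 with a trended and robust prior, 165 when all probes were tested and 69 with median scaling. Leaving out 1 array gave 120 to 521 (208 without control array 2, 120 without control array 3, 155 without knockout array 2 and 217 without knockout array 3). The 2 called probes of the pathway list became 0 with median scaling (69 of all 10407 tested probes called) and 4 with an offset of 50 (699 of 10407). They became 1 when all probes were tested (165 of 25696) or with 1 probe per gene (348 of 7579). Leaving out 1 array gave 0 to 3, as the count over all probes ran from 120 to 521. With median scaling each probe followed across settings had the same SE, 0.31, so its adjusted p did not use that probe's own spread. Apart from this and the settings' own construction (fewer arrays, more or fewer probes tested), the cause was not tested. Reversals were seen for 3 probes that were not called, each on leaving out an array: the Ncbp2 probe detected on 3 arrays (-0.17 to 0.13), the second Phax probe (-0.11 to 0.12) and the other Cstf3 probe (-0.0561 to 0.20). With the replicate number as a block, 320 probes and 1 pathway probe (Cstf3) were called, and no member; the numbers were not shown to pair the arrays, since same-numbered arrays deviated from their group means with correlations from -0.06 to 0.00 and 0 of 6 arrays correlated best with their own number. Signal near background limits Slbp, Lsm11, Cpsf2, Cpsf3, that Ncbp2 probe, Coil, the first Phax probe, the Tecrl probe and the Cdc20 and Birc5 probes.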
